A study of Yarrowia lipolytica with 9 samples.

Results

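The subject is a deviation that 1 RNA-seq library of each of 3 engineered Yarrowia lipolytica strains showed against its own replicates. The deviating libraries are yl_10 replicate 3, yl_11 replicate 1 and yl_12 replicate 3, which are 3 of the 9 libraries, and the other 6 are their sister libraries, 2 per strain. They were picked by their own values: in each strain, the library least correlated with its sisters on log2 CPM (counts scaled to library size, on a log scale). Every level, fold and correlation between the deviating libraries and their sisters below is therefore a description without a test and without a p-value. Per the labels, all 3 strains, named yl_10, yl_11 and yl_12, derive from strain ATCC 201249 and carry heterologous genes, and the cells were harvested after 72 h in shake flasks at 28 °C and 250 rpm. The labels do not say which genes each strain received, nor whether the replicates of a strain were separate cultures.

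Yarrowia lipolytica is a strictly aerobic yeast known for storing lipid and for growing on alkanes and fatty acids. Lycopene, the red carotenoid that the study concerns, is not made by the wild yeast. It is formed from geranylgeranyl diphosphate, a product of the mevalonate pathway, once carotenoid enzymes of other organisms are introduced. The reference table used here gives locus tags but no product names, so genes are named by locus tag and no role is assigned to any of them. No nucleotide or protein sequence was used.

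Library totals were 7035777, 16424183 and 12461559 counts in yl_10 replicate 3, yl_11 replicate 1 and yl_12 replicate 3. Sister libraries of yl_10 held 14100668 and 8304873 counts, those of yl_11 held 12094446 and 10995778, and those of yl_12 held 11826987 and 12471651. The deviating library was thus the shallowest of its strain in yl_10 and the deepest in yl_11, and in yl_12 it lay between its sisters. TMM scaling factors, which adjust for the composition of a library, were 0.970 to 0.997 in the deviating libraries and 0.986 to 1.03 in the others.

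The margin by which the rule set these libraries apart differed among strains. In yl_10 the mean correlation with the sisters was 0.9916 for replicate 3, against 0.9944 and 0.9937 for replicates 1 and 2. In yl_12 it was 0.9928 for replicate 3, against 0.9950 for each of the others. In yl_11 it was 0.9954 for replicate 1, against 0.9961 and 0.9959, so the choice of library was closest there. The chi-square per degree of freedom between the raw counts of library pairs, where 1 stands for counting noise alone, was 7.09 to 15.4 for pairs that included a deviating library. It was 1.87, 2.31 and 1.72 for the sister pairs of yl_10, yl_11 and yl_12.

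The deviation of a feature was taken as its log2 CPM in the deviating library minus the mean of its sisters, within a strain. The analysis covered 6147 features that passed an expression filter. The SD of the deviation over features was 0.30 in yl_10, 0.21 in yl_11 and 0.27 in yl_12 on the log2 scale, against an SD of 0.20, 0.19 and 0.18 for the difference between the sisters. Among the 5051 features with a mean of at least 10 CPM, where counting noise is lower, these SDs were 0.23, 0.16 and 0.22 for the deviation, against 0.11, 0.12 and 0.11 between sisters. A difference of at least 1.5-fold was seen in 113 of these 5051 features for yl_10 replicate 3, of which 17 were higher and 96 lower. For yl_11 replicate 1 there were 13 higher and 35 lower, and for yl_12 replicate 3 there were 28 higher and 72 lower. The sisters differed from each other by 1.5-fold in 2, 5 and 1 features. These comparisons are not like for like. A deviation sets 1 library against a mean of 2, and a sister difference sets 1 against 1. The rule also left the sisters as the more similar pair of each strain.

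The deviations of different strains, which share no library, were positively correlated. Across the 6147 features the Pearson correlation of the deviations was 0.37 for yl_10 with yl_11, 0.27 for yl_10 with yl_12 and 0.49 for yl_11 with yl_12. At 10 CPM or more it was 0.46, 0.35 and 0.64. Features within a library share its depth and preparation and are not independent replicates. Of the features at least 1.5-fold higher in a deviating library, 16 of 17 in yl_10, 10 of 13 in yl_11 and 19 of 28 in yl_12 were also above the sister mean in both other strains. Of the 35 features at least 1.5-fold lower in yl_11 replicate 1, all 35 were also below the sister mean in both other strains. The share was 68 of 72 (94.4%) for yl_12 replicate 3 and 59 of 96 (61.5%) for yl_10 replicate 3. In 21 of the 96, both other strains had deviations of the opposite sign, so part of the falls in yl_10 replicate 3 had the opposite sign elsewhere. Signs often differed over all 6147 features too. The sign in yl_10 was that in yl_11 for 60.7% of them and that in yl_12 for 55.6%. Among all features of at least 10 CPM, whatever the size of their deviation, 38.8% to 40.2% of those above the sister mean in a strain were above it in both others, and 40.7% to 42.2% of those below it were below it in both others.

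**Figure D1:**
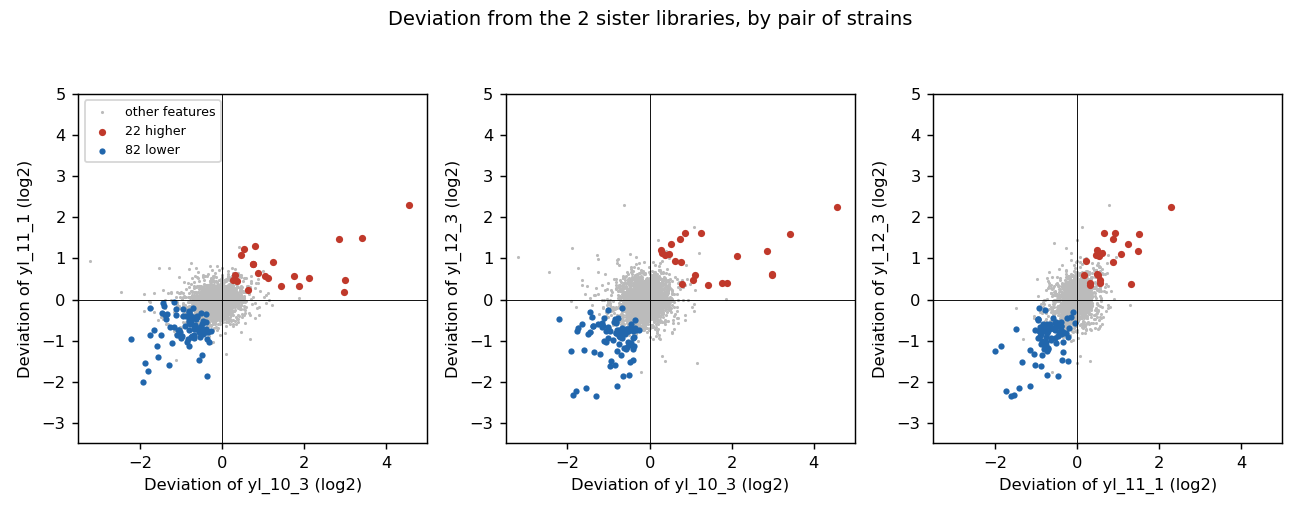
Each point is 1 of 6147 features, placed by its deviation (log2 CPM of the deviating library minus the mean of its sister libraries) in a pair of strains. The 22 red features lay above both sisters in all 3 strains and the 82 blue ones below, each with a mean deviation of at least 1.5-fold, and the right panel (yl_11 with yl_12) has the tightest cloud, with r = 0.49.

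Features that carried the shared deviation were defined as those in which the deviating library lay beyond both sisters, on the same side, in all 3 strains, with a mean deviation of at least 1.5-fold (0.585 on the log2 scale). This held for 22 features that were higher (0.358% of those analysed) and for 82 that were lower (1.33%). A mean deviation of 2-fold was reached by 10 of the higher features (0.163%) and 16 of the lower ones (0.26%). Without the fold limit, 635 features were higher (10.3%) and 836 lower (13.6%), so most of the shared deviation was small. With only features of at least 10 CPM, an alternative added after the data were seen, 12 were higher and 38 lower at the 1.5-fold limit. In bulk RNA, fewer cells holding a transcript and less of it per cell cannot be told apart. Since the libraries were chosen by how little they resembled their sisters, these shares say nothing about how often such a pattern arises. The 1.5-fold limit fell inside a continuous range, with YALI1_C29355g at 0.60 and YALI1_D25715g at 0.58 on either side of it among the rises. Among the falls it lay between YALI1_C24367g at -0.59 and YALI1_E15452g at -0.58.

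A fit of the counts with strain as a term gave 32 features at least 1.5-fold higher (0.521%) and 105 at least 1.5-fold lower (1.71%) in the deviating libraries. It sets no condition on each strain and so admits features led by 1 library. The rule above also admits such features, as its fold limit applies to the mean deviation only. Without the expression filter the counts of the fit were 58 and 166. The excess of falls over rises among the 104 features beyond both sisters depended little on scaling, with 21 higher and 97 lower when library totals alone were used. It was smaller on log2(FPKM + 1), a scale that compresses scarce features, with 19 higher and 55 lower.

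YALI1_B26033g (XM_501117.1, 1116 coding bases) had the largest deviation of all. Its level was 86.6 CPM in yl_10 replicate 3, 28.97 CPM in yl_11 replicate 1 and 21.8 CPM in yl_12 replicate 3. The sister libraries of yl_10 had 3.94 and 3.16 CPM, those of yl_11 5.35 and 6.25 CPM, and those of yl_12 5.15 and 3.82 CPM. The deviating libraries were thus above all 6 others. Among the sisters, those of yl_11 lay above those of yl_10 and yl_12, which overlapped. The mean deviation was 3.03 ± 1.32 (SD over 3 strains) on the log2 scale, and the fitted log2 fold change was 3.12 (SE 0.43).

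The next 3 rises were likewise led by yl_10 replicate 3. YALI1_F18740g (XM_505390.1) was at 47.7, 11.4 and 9.76 CPM in the deviating libraries of yl_10, yl_11 and yl_12, against 2.60 to 4.53 CPM in the other 6. YALI1_C10762g (XM_501582.1) was at 72.0, 18.7 and 13.8 CPM, against 4.80 to 11.2 CPM. YALI1_A12540g (XM_500012.1) was at 34.2, 6.30 and 7.78 CPM, against 3.59 to 6.005 CPM, and its mean over the 9 libraries was 8.42 CPM. In each, yl_10 replicate 3 was far above the rest, and the deviating libraries of the other strains exceeded all 6 sister libraries by less. The mean deviations were 2.17 ± 1.08, 1.84 ± 0.89 and 1.36 ± 1.41. That of YALI1_A12540g rested on yl_10 replicate 3 and was 0.55 without it.

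These 3 genes had the same coding length of 1107 bases, and so did 3 further features among the 22 that were higher. No other length occurred more than once among the 22. These further features were chosen after their values were seen, except YALI1_E17326g (XM_503936.1), which was the most abundant of the 22. It was at 2981, 1678 and 1335 CPM in the deviating libraries of yl_10, yl_11 and yl_12. Its sister libraries of yl_10 had 1369.8 and 1385 CPM, those of yl_11 1123 and 1229 CPM, and those of yl_12 901 and 852 CPM. The sisters also differed among strains, and yl_12 replicate 3 lay below the sisters of yl_10. Its mean deviation was 0.75 ± 0.32. YALI1_C20054g (XM_501824.1) was scarce, at 11.7, 2.51 and 2.98 CPM against 1.29 to 3.16 CPM, so its 2 sets of libraries overlapped. Its mean deviation was 1.24 ± 0.81, and 0.80 without yl_10 replicate 3. YALI1_E19036g (XM_503998.1) had 78, 37 and 21 raw counts in the deviating libraries of yl_10, yl_11 and yl_12. Its sisters had 18 and 11, 24 and 22, and 10 and 17 counts. It rested on yl_10 replicate 3, with a mean deviation of 1.25 ± 1.51 and of 0.39 without that library.

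Of the 15 analysed features with 1107 coding bases, 6 were among the 22 that were higher and none was among the 82 that were lower. Over all 6147 features, 0.358% were higher and 1.33% lower. The other 9 of this length had mean deviations from -0.38 to 0.13, so the length went with the rise in some features only. Among these 9, YALI1_E15211g and YALI1_A00325g also lay above both sisters in all 3 strains, with mean deviations of 0.13 and 0.11. The length was picked out from the 22, so its share is a description. With 15 features this was not an unusual length, as 21 shared the most frequent one. The length of YALI1_B26033g was 1116 bases and that of YALI1_F36584g (XM_506003.1), a further rise chosen after its values were seen, was 1098 bases. YALI1_F36584g was at 38.3, 17.1 and 18.4 CPM in the deviating libraries of yl_10, yl_11 and yl_12, against 10.6 to 14.2 CPM in the others. Its mean deviation was 0.91, and 0.49 without yl_10 replicate 3. If any of these genes are near-identical copies, their reads may have been shared out among them or dropped, which a count table does not show. The 6 features of 1107 bases together took 3158, 1720 and 1371 CPM in the deviating libraries of yl_10, yl_11 and yl_12, and 869 to 1409 CPM in the others, of which most was YALI1_E17326g.

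**Figure D2:**
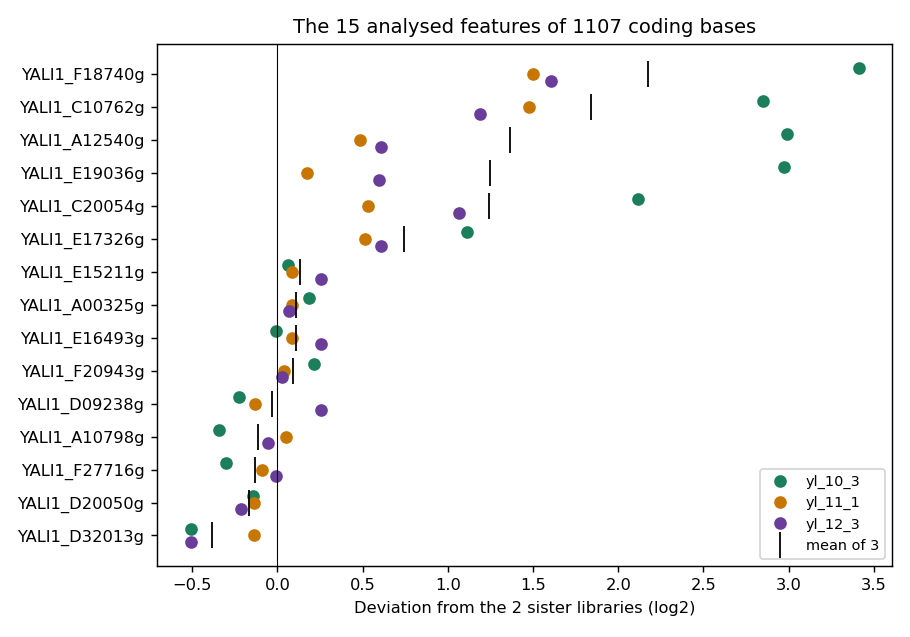
The horizontal axis gives the deviation of each deviating library from its sisters (log2) for the 15 analysed features with a coding length of 1107 bases, and the black bar is the mean of the 3. The top 6 are among the 22 higher features, with yl_10 replicate 3 farthest to the right in each, and the other 9 have means between -0.38 and 0.13.

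Many of the other rises had the largest deviation in yl_12. Over all 6147 features, 2747 deviated most in yl_10, 2257 in yl_12 and 1143 in yl_11. Of the 22 higher features, 11 deviated most in yl_10, 10 in yl_12 and 1 in yl_11. The 11 had feature lengths of 840 to 2768 bases with a median of 1107. The 10 had a median of 545 bases, and 7 of them were at or below 714 bases, the upper limit of the shortest quintile of RefSeq features, against none of the 11. Over that whole quintile the median deviation was 0.085 in yl_12 and -0.066 in yl_10.

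YALI1_D34980g (XM_503318.1, 786 coding bases) was the most abundant feature led by yl_12. It was at 137, 165 and 63.6 CPM in the deviating libraries of yl_10, yl_11 and yl_12. Its sister libraries of yl_10 had 101 and 89.2 CPM, those of yl_11 69.9 and 69.2 CPM, and those of yl_12 24.4 and 24.9 CPM. Levels in the sisters differed by strain, and yl_12 replicate 3 stayed just below the yl_11 sisters. The mean deviation was 1.04 ± 0.45 and the fitted log2 fold change 1.03 (SE 0.16). YALI1_F08585g (XM_505048.1) and YALI1_F25382g (XM_505603.1), chosen after their values were seen, combined the same differences between strains and libraries. YALI1_F08585g was at 134, 68.9 and 35.3 CPM in the deviating libraries of yl_10, yl_11 and yl_12, against 81.9 and 76.6, 36.5 and 39.1, and 21.3 and 16.4 CPM in their sisters. Its deviations of 0.76, 0.86 and 0.91 were the most even among the 22. YALI1_F25382g was at 94.9, 66.3 and 28.8 CPM, against 66.7 and 71.0, 32.3 and 30.3, and 12.5 and 13.9 CPM. In both genes the deviating library of yl_11 came close to the sisters of yl_10, and that of yl_12 to the sisters of yl_11.

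The other abundant rise was YALI1_F31798g (XM_505828.1). It was at 722, 434 and 339 CPM in the deviating libraries of yl_10, yl_11 and yl_12. Its sisters were at 358 and 337, 296 and 289, and 251 and 239 CPM. Its deviations of 1.06, 0.57 and 0.47 were led by yl_10, as in the features of 1107 bases, though its length was 840 bases. Novel00137, also chosen after its values were seen, is a feature with a running number given by the authors and a length of 2768 bases. It was at 92.9, 44.7 and 48.7 CPM against 32.9 to 42.1 CPM, with a mean deviation of 0.70, and of 0.33 without yl_10 replicate 3.

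The mean deviations of the 82 lower features spanned a narrower range than those of the 22 higher ones. They ranged from -1.92 to -0.59 with a median of -0.79, against 0.60 to 3.03 with a median of 0.90 among the rises. At least 1.5-fold in each of the 3 strains was reached by 29 of the 82 falls and 7 of the 22 rises. The median level of the 82 was 7.94 CPM and that of the 22 rises 11.8 CPM, against 47.8 CPM over all features. Of the 82, 38 reached 10 CPM in the mean of the deviating libraries or of the others. The deviation was largest in yl_12 for 39, in yl_10 for 30 and in yl_11 for 13, beside 2257, 2747 and 1143 of all 6147 features.

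YALI1_D09308g (XM_502525.1, 1221 coding bases) showed the largest fall among features of at least 10 CPM. It was at 18.7, 21.3 and 12.6 CPM in the deviating libraries of yl_10, yl_11 and yl_12. In the sisters it was at 60.7 and 77.7, 59.6 and 65.3, and 69.1 and 58.9 CPM. The 3 deviating libraries lay below all 6 others, and the sisters of the 3 strains overlapped with each other. The mean deviation was -1.91 ± 0.39 and the fitted log2 fold change -1.88 (SE 0.17). YALI1_A00148g (XM_499605.1) was at 16.5, 12.96 and 9.93 CPM in the deviating libraries of yl_10, yl_11 and yl_12, against 38.6 to 57.7 CPM in the other 6, with a mean deviation of -1.75 ± 0.55. YALI1_E23256g (XM_504145.1) was at 12.1, 7.88 and 4.72 CPM against 17.5 to 21.96 CPM, with a mean deviation of -1.34 ± 0.67. In both, the deviating libraries were again apart from all sisters, and yl_12 replicate 3 was the lowest.

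YALI1_F15641g (XM_505304.1, 2208 coding bases) and YALI1_B17363g (XM_500826.1, 2160 coding bases) were at least 2-fold lower in each strain. YALI1_F15641g was at 8.12, 8.01 and 4.14 CPM in the deviating libraries of yl_10, yl_11 and yl_12, against 26.8 and 23.0, 16.9 and 18.8, and 9.26 and 10.6 CPM in the sisters. YALI1_B17363g was at 10.7, 10.8 and 5.13 CPM against 22.7 and 27.5, 23.4 and 21.8, and 12.95 and 13.2 CPM. The yl_12 sisters lay below those of yl_10 and yl_11 in both genes. The mean deviations were -1.32 ± 0.24 and -1.20 ± 0.13, with fitted log2 fold changes of -1.33 (SE 0.12) and -1.18 (SE 0.10).

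**Figure D3:**
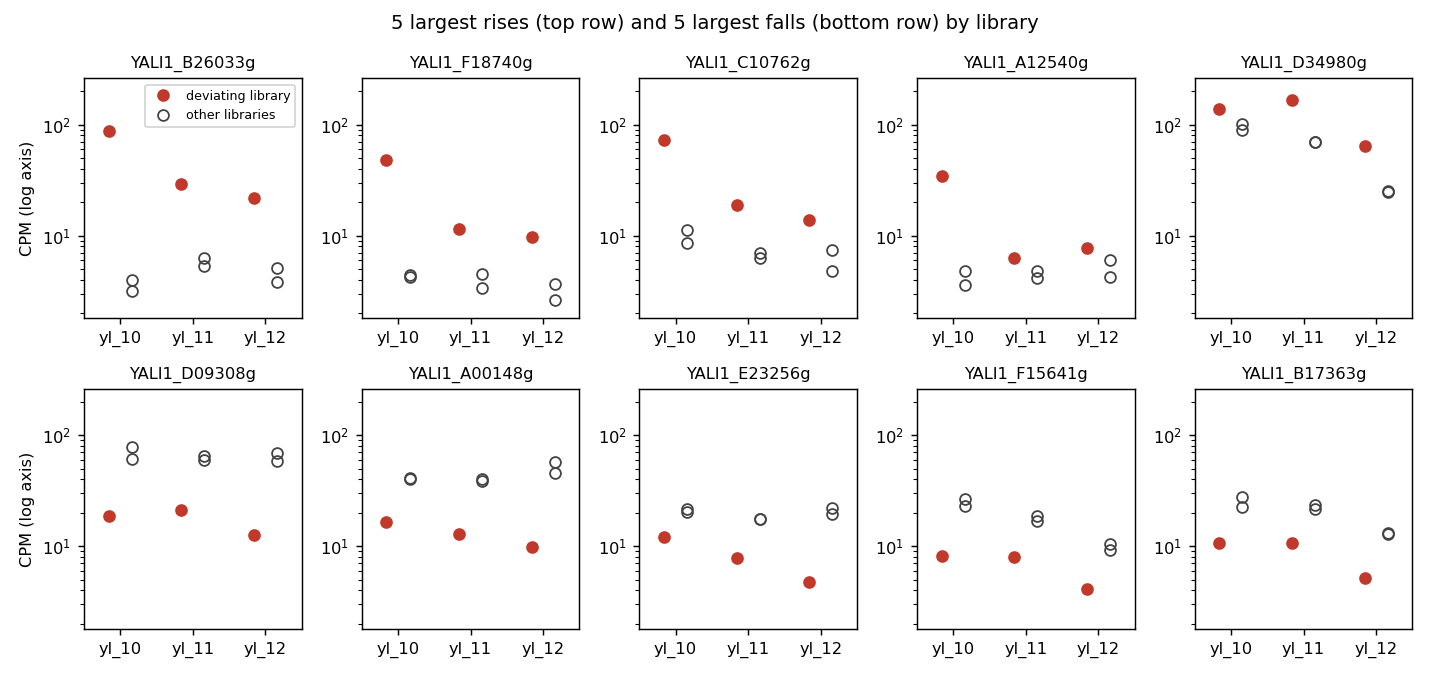
CPM on a log axis in each of the 9 libraries for the 5 largest rises and the 5 largest falls among features with a mean of at least 10 CPM in the deviating libraries or in the others, with the deviating library (filled) left of its sisters (open) in each strain. Every gene drawn except YALI1_D34980g separates the 3 deviating libraries from all others. YALI1_D34980g also differs between the sisters of yl_12 and of the other strains, and its 2 sets of libraries overlap.

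The 3 most abundant falls were led by YALI1_C00841g (XM_501294.1), at 111, 121 and 97.1 CPM in the deviating libraries of yl_10, yl_11 and yl_12 against 137 to 202 CPM in the other 6. YALI1_E06712g (XM_503597.1) was at 84.4, 64.4 and 47.2 CPM against 127 to 156 CPM. YALI1_B10525g (XM_500625.1) was at 64.1, 50.3 and 101 CPM in the deviating libraries of yl_10, yl_11 and yl_12. Its sisters were at 87.6 and 98.4, 94.2 and 96.3, and 169 and 174 CPM. Only in the last of these 3 genes did the 2 sets of libraries overlap, as yl_12 replicate 3 lay above the sisters of both other strains. The mean deviations were -0.63 ± 0.20, -1.16 ± 0.40 and -0.74 ± 0.19. The smallest spread among strains was seen for YALI1_C09072g (XM_501531.1), chosen after its values were seen, with deviations of -0.66, -0.62 and -0.70.

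Summed over the 82 lower features, the deviating libraries had 1094, 1022 and 1050 CPM in yl_10, yl_11 and yl_12, and the other libraries had 1691 to 2097 CPM. Summed over the 22 higher features, the deviating libraries had 4523, 2615 and 2053 CPM, and the sisters of yl_10 had 2086 and 2068 CPM, those of yl_11 1679 and 1773 CPM, and those of yl_12 1342 and 1270 CPM. The sums over the lower features were thus close to each other in the 3 deviating libraries. Most of the sum over the higher features came from YALI1_E17326g and YALI1_F31798g, and its order of strains did not hold for each member. In YALI1_E36619g, which was picked out by its values, the levels were 9.98, 13.6 and 41.4 CPM in the deviating libraries of yl_10, yl_11 and yl_12, against 7.18 and 4.79, 7.73 and 7.07, and 13.3 and 16.5 CPM in their sisters. These sums were formed over features chosen for their separation and made up at most 0.452% of a library.

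A library could also be placed by features chosen in the other strains only. With the rule applied to the other 2 strains, yl_10 was scored on 35 higher and 95 lower features, yl_11 on 33 and 119, and yl_12 on 22 and 99. A score, the mean log2 CPM of the higher set minus that of the lower set, was taken relative to the mean of the sisters. It was 1.05 for yl_10 replicate 3, 0.98 for yl_11 replicate 1 and 1.45 for yl_12 replicate 3. The sisters lay within 0.086, 0.027 and 0.058 of their mean in yl_10, yl_11 and yl_12. By this centring the sisters of a strain lie at equal distances on either side of their mean. The rule had also left them as the more similar pair. Their distance from the deviating library was thus partly set by the choice of libraries. In yl_10 replicate 3, 25 of 35 features chosen in the other strains for a rise were above the sister mean (71.4%) and 88 of 95 chosen for a fall were below it (92.6%). The counts were 27 of 33 (81.8%) and 107 of 119 (89.9%) in yl_11 replicate 1, and 20 of 22 (90.9%) and 83 of 99 (83.8%) in yl_12 replicate 3. Of all 5051 features of at least 10 CPM, 2488, 2522 and 2582 were above the sister mean in yl_10, yl_11 and yl_12. Below it were 2563, 2529 and 2469. The scored sets were not limited to 10 CPM, and in the lowest quintile of abundance the median deviation was -0.16 in yl_10.

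**Figure D4:**
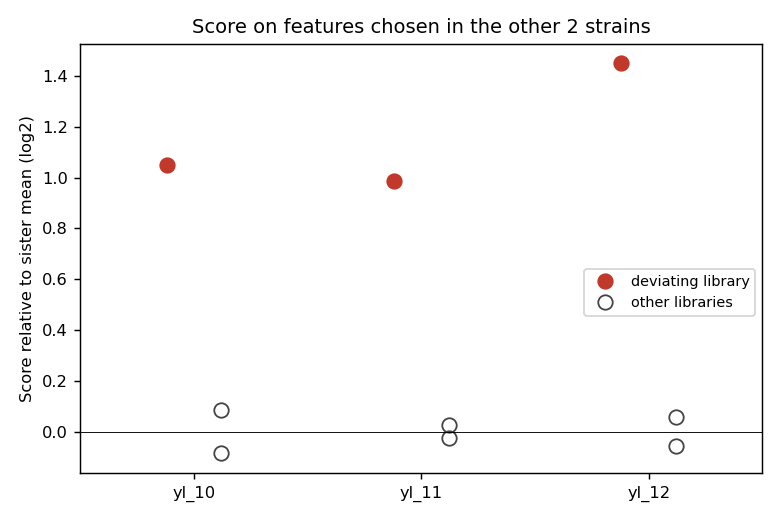
The score of each library (mean log2 CPM of higher minus lower features, chosen in the other 2 strains, relative to the mean of the sisters) by strain. The deviating libraries (filled) lie at 1.05, 0.98 and 1.45 and the sisters (open) within 0.086 of 0.

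Abundance went with the deviation in all 3 strains. The Spearman correlation of the deviation with mean log2 CPM over 6147 features was 0.30 in yl_10, 0.12 in yl_11 and 0.10 in yl_12, and 0.26 for the mean of the 3. Without yl_10 replicate 3 the last value was 0.13. In the lowest quintile of features, at 0.572 to 11.5 CPM, the median deviation was -0.16 in yl_10, -0.041 in yl_11 and -0.025 in yl_12. In the highest quintile, from 183 CPM, it was 0.063, 0.013 and 0.020. The trend was thus strongest in yl_10, whose deviating library had the lowest total, and the part of depth in it was not tested. In yl_11 the deviating library had the highest total, and the trend had the same sign. Of the 82 lower features, 45 were in the lowest quintile (3.66% of that quintile) and none in the highest. Of the 22 higher features, 11 were in the lowest quintile and 2 in the highest.

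Coding length went with the deviation in opposite directions. Over 5788 RefSeq features, the Spearman correlation was 0.12 in yl_10 and 0.078 in yl_11, and -0.17 in yl_12. In the shortest quintile, up to 714 bases, the median deviation was -0.066 in yl_10, -0.0046 in yl_11 and 0.085 in yl_12. In the longest quintile, from 2037 bases, it was 0.016, 0.019 and -0.010. The medians did not change steadily with length in yl_11 and yl_12. Their lowest values were -0.015 in quintile 2 for yl_11 and -0.042 in quintile 4 for yl_12. The mean deviation had a correlation of 0.016 with length, and its sign turned without yl_10 replicate 3, at -0.079, without yl_11 replicate 1, at -0.021, and without yl_10 replicate 1, at -0.0053.

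**Figure D5:**
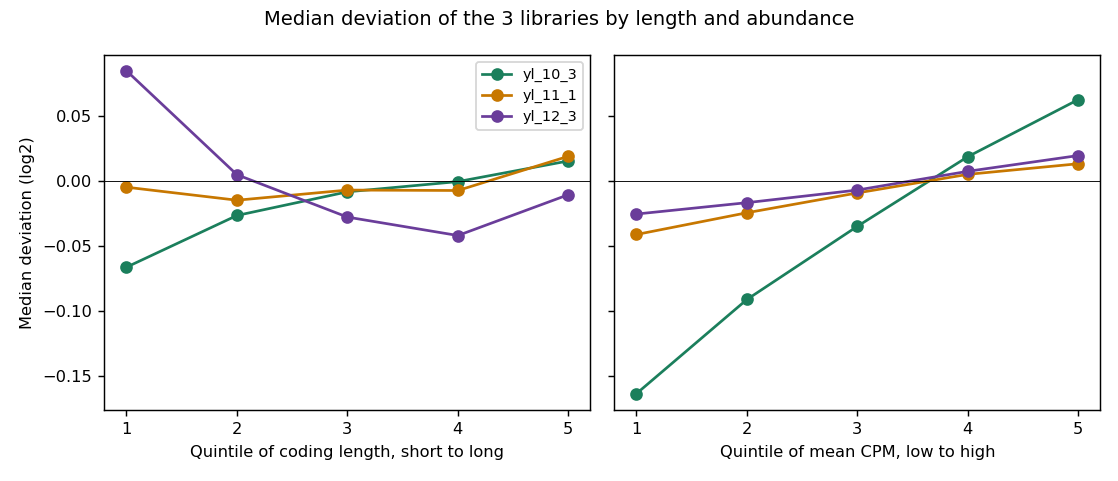
Median deviation (log2) of the 3 deviating libraries over quintiles of coding length (5788 RefSeq features) and of mean CPM (6147 features). The length curve of yl_12 replicate 3 falls from 0.085 in the shortest quintile to -0.042 in quintile 4 and is at -0.010 in the longest. That of yl_10 replicate 3 runs from -0.066 to 0.016. All 3 abundance curves end higher in the most abundant quintile than in the least abundant one.

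Features of the shared deviation were also counted by annotation class and chromosome, which the rule did not use. Of 5788 RefSeq features, 20 were higher and 80 lower (1.73%), and of 359 features with a running number, 2 were higher and 2 lower (1.11%). By the chromosome letter of the locus tag, the share ranged from 1.09% on D to 3.45% on A, where 4 of 522 features were higher and 14 lower. Among neighbouring genes with a locus tag, 3 pairs were lower together and no pair was higher together. The pairs were YALI1_A00148g with YALI1_A00241g, YALI1_A16292g with YALI1_A16422g, and YALI1_C09033g with YALI1_C09072g. The mean deviation of YALI1_A16422g was -1.21, and -0.71 without yl_10 replicate 3. Counted from each lower gene to either side, 6 of 147 neighbouring positions held a lower gene (4.08%). These 6 are the same 3 pairs seen from both ends. Of all such genes, 1.39% were lower. The 6 features of 1107 bases lay apart from each other.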

How the data were processed

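The authors deposited raw read counts and FPKM values (fragments scaled to length and library size) for the same 6366 features and 9 libraries. The submitters' processing notes name HTSeq 0.6.1 and, beside it, DESeq 1.18.0, without saying what each did. The sources used here do not give the aligner, genome build, annotation or use of strand. Reads were paired, of 150 bp, per the labels' protocols.

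Counts were analysed in R 4.3.3 by edgeR 4.0.16, using TMM factors and the default expression filter by strain. Log2 CPM used a prior count of 2. Deviations were taken within strains. Fitted folds and SEs come from the quasi-likelihood fit of all 9 libraries with strain and membership of the deviating libraries as terms. Its p-values are not given, because these libraries were picked from the same values. Feature lengths are counts over FPKM and library total. Accessions were matched without version to RefSeq genes of assembly ASM176148v1, which named 5430 of 5959 (91.1%).

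The naming rule took the 5 largest rises and falls, and the 3 most abundant of each direction, among features with a mean of at least 10 CPM in the deviating libraries or in the others. Elsewhere, 10 CPM refers to the mean over the 9 libraries. The features and lists were chosen with earlier results of these data known. The 22 gene lists drawn up by product name or locus tag could not be matched (0 of 21 tags, and no product names), so none was described and no promoter motif was searched. Library totals of 7035777 to 16424183 counts limit the precision of features at a few CPM, and no intervals were formed.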

Additional observations from a re-analysis of the deposited data

Results flagged for a closer look

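The relation of the deviation to coding length had opposite signs, with a Spearman correlation of -0.168 in yl_12 against 0.121 in yl_10 and 0.078 in yl_11. With 1 deviating library per strain, the difference between strains was not tested.

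Among features of at least 10 CPM, 2 lay beyond both sisters, and at least 1.5-fold from their mean, in opposite directions in different strains, and neither difference was tested. YALI1_B07331g (XM_500525.1) was at 2.71 CPM in yl_10 replicate 3 against 7.32 and 9.12 CPM in its sisters, a deviation of -1.54. In yl_11 replicate 1 it was at 15.2 CPM against 7.16 and 11.1 CPM, a deviation of 0.76. XM_002143002.1, which has no locus tag, was at 4.42 CPM in yl_10 replicate 3 against 7.12 and 8.53 CPM, a deviation of -0.80. In yl_12 replicate 3 it was at 19.7 CPM against 10.5 and 9.51 CPM, a deviation of 0.97.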

How the results depend on the processing

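For features beyond both sisters, the counts of 22 higher and 82 lower were within 1.5 times under library totals, DESeq2 size factors, no low-count filter, a prior count of 0.5 and FPKM. They were 10 and 16 at the 2-fold limit, and 12 and 38 at 10 CPM or more, an alternative chosen after seeing the data. Leaving out 1 library gave 22 to 35 higher and 85 to 118 lower. The count of 35 came without yl_10 replicate 3 and that of 34 without yl_11 replicate 1, where the condition covers 2 strains. The fitted counts of 32 and 105 were 58 and 166 without the filter, where more features enter, 11 and 21 at 2-fold, 13 and 40 at 10 CPM or more, and 31 to 45 and 103 to 145 with 1 library left out. The correlation of yl_11 with yl_12 was 0.64 at 10 CPM or more, and 0.44 to 0.49 with 1 library left out. The other correlations were 0.33 to 0.37 (yl_10 with yl_11) and 0.24 to 0.29 (yl_10 with yl_12). The length correlation of 0.016 was -0.018 at 10 CPM or more and ranged from -0.079 (without yl_10 replicate 3) to 0.14 (without yl_12 replicate 3). The abundance correlation of 0.26 ranged from 0.13 (without yl_10 replicate 3) to 0.28, and was 0.24 with abundance taken from the other 6 libraries. The causes were not tested. None of the 104 features reversed in 13 alternatives. Their definition largely fixed this, as each deviated to the same side in all 3 strains, so leaving out 1 library could hardly turn the sign. In 21 of the 104 the mean deviation was over 1.5 times smaller in at least 1 alternative.

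With the replicate number as a block, 39 features were higher and 104 lower. Correlations between the deviations of same-numbered libraries ranged from -0.35 to 0.27. They were 0.15 to 0.17 for replicate 2. The negative values all involved yl_11, whose deviating library is replicate 1, while it is replicate 3 in the other strains. Because the picked libraries differ in number, these values cannot decide whether equal numbers pair libraries, and no pairing was assumed.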
